A study of Mus musculus with 6 samples.

Results

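The 9 genes described here are those of cellular iron uptake, storage, release and their post-transcriptional control: Tfrc, Steap3, Slc11a2, Fth1, Ftl1, Ncoa4, Slc40a1, Ireb2 and Aco1. They were taken by name from the 21936 genes listed in the deposited count table, and each name matched 1 row. All 9 were among the 11809 genes with enough counts to be tested. Messenger RNA was measured in PAM212, a cell line that the sample labels call mouse keratinocytes. The series title also names keratinocytes, whereas its design line names melanocytes, and the sample labels were followed. The overexpression libraries, 3 in number, came from PAM212 cells infected with a lentivirus that carries the mouse miR-28-3p gene, and the 3 control libraries came from PAM212 cells whose treatment label says untreated. Both groups grew in the same serum-containing medium. The labels do not say whether the control cells received an empty virus or whether the infected cells are 1 clone or a pool. They also do not say whether libraries of a group are separate cultures. The p-values therefore set the difference between the groups only against the spread between these libraries. The microRNA itself was not analysed here, because the table counts messenger RNA.

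Mammalian cells take up iron mainly as transferrin bound to the transferrin receptor, reduce it in the endosome, and pass it to the cytosol through a divalent metal transporter. Iron that is not used at once is stored inside ferritin, is set free again when ferritin is delivered to the lysosome, and leaves the cell through ferroportin. A pair of iron regulatory proteins, the products of Aco1 and Ireb2, bind hairpins called iron-responsive elements when iron is scarce. Binding in a 5′ UTR blocks translation of ferritin and ferroportin messages, and binding in the 3′ UTR of the transferrin receptor message protects it from decay. Protein levels, iron and the binding of these proteins were not measured in this study.

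The elements below are shown because they mark which messages of the set match a strict form of the hairpin, and at which end. A search of the annotated UTRs (GENCODE release 21, build GRCm38) used the transcribed strand and looked for a 6-base loop, CAGTGN, between 2 stretches of 5 bases that pair with each other, G-T pairs allowed, with an unpaired C before the first stretch. It found 7 elements in 4 of the 9 genes: 1 in each 5′ UTR of Fth1, Ftl1 and Slc40a1, and 4 in the 3′ UTR of Tfrc. Each is printed 5′ to 3′ over 29 bases with its loop in capitals.
Fth1 5′ UTR, chr19:9982732-9982760, plus strand: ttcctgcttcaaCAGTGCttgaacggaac
Ftl1 5′ UTR, chr7:45459779-45459807, minus strand: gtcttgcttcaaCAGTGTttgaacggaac
Slc40a1 5′ UTR, chr1:45925465-45925493, minus strand: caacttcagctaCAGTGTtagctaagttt
Tfrc 3′ UTR, chr16:32631219-32631247, plus strand: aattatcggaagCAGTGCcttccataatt
Tfrc 3′ UTR, chr16:32631598-32631626, plus strand: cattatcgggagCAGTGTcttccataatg
Tfrc 3′ UTR, chr16:32631663-32631691, plus strand: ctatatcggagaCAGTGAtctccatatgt
Tfrc 3′ UTR, chr16:32631710-32631738, plus strand: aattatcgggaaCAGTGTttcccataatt
The elements of Fth1 and Ftl1 share 26 of 29 bases, and that of Slc40a1 shares 13 of 29 with each of them. The pattern occurred in a 5′ UTR of 31 of 20802 annotated genes (0.149%) and in a 3′ UTR of 129 of 20926 (0.616%). No match was found in the UTRs of Slc11a2, Ncoa4, Steap3, Ireb2 or Aco1, which says only that this pattern is not in those windows. The search also found none in Epas1 and Cdc14a, which are listed below among messages known to carry an element. It can therefore miss elements, and a gene without a match may still hold one.

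With miR-28-3p overexpression, the transferrin receptor message rose 10.6-fold and both ferritin messages and the ferroportin message fell. Fth1 was 2.35-fold, Ftl1 2.49-fold and Slc40a1 3.45-fold lower, and the log2 fold change of Ftl1 shrank to -0.30 after correction for gene length and GC content. The divalent metal transporter Slc11a2, the ferritin-turnover receptor Ncoa4 and both iron regulatory protein genes also rose. Steap3 did not pass the test. In all, 5 of the 9 genes were higher, 3 were lower and 1 was not called, with a median log2 fold change of 0.78. The comparison as a whole was broad: 42.1% of the 11809 tested genes were called higher and 43.9% lower, with a median log2 fold change of -0.03, so being called is in itself common here. Among the 9 genes, 3 were higher and 3 were lower by at least 2-fold, against 14.8% and 21.0% of all tested genes. After the correction for length and GC content, Slc11a2 (0.89), Ncoa4 (0.81) and Ftl1 (-0.30) were under 2-fold on the log2 scale. Tfrc (2.97), Fth1 (-1.06) and Slc40a1 (-2.41) stayed past it. The share of all genes past 2-fold after that correction was not worked out. The groups did not overlap for 8 of the 9 genes, 5 with the overexpression libraries on top and 3 with them below, against 42.2% and 43.8% of all tested genes. Under upper quartile scaling the calls over all genes were 3961 higher and 6288 lower, against 4975 higher and 5184 lower in the TMM-scaled fit, and the median over all genes moved to -0.26 on the log2 scale. The 8 calls on these genes had the same direction under that scaling.

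**Figure D1:**
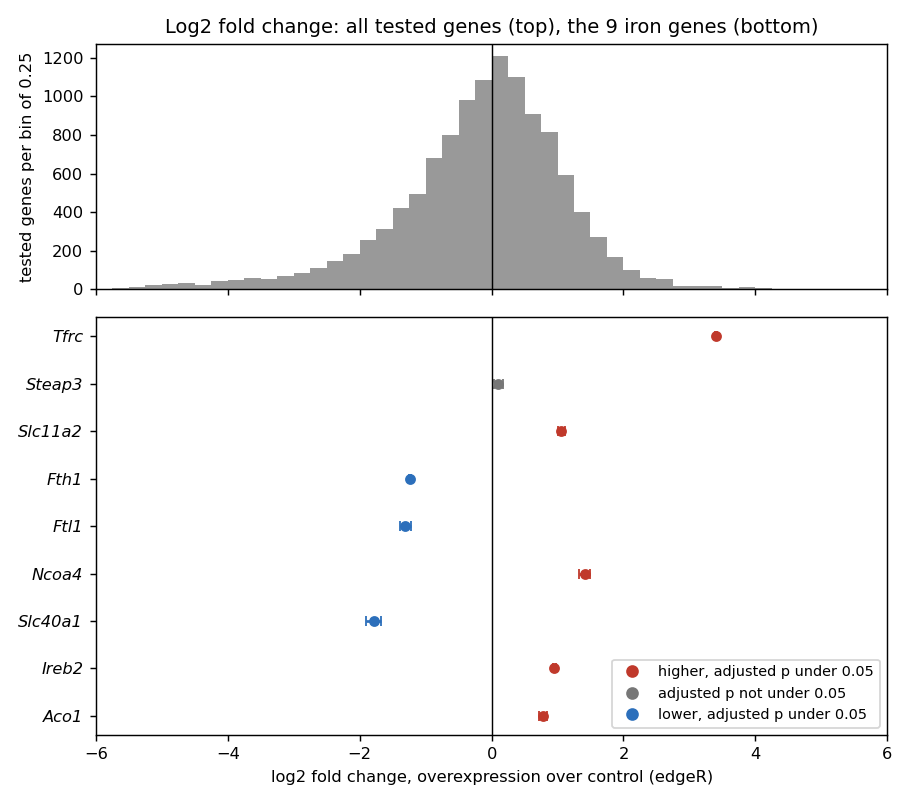
Log2 fold changes of overexpression over control, for all tested genes as a histogram (top, the axis is limited to values from -6 to 6) and for the 9 iron genes (bottom), where bars are the standard error over 3 libraries per group. Tfrc stands far to the right at 3.40, the storage and export genes Fth1, Ftl1 and Slc40a1 lie between -1.23 and -1.79, and Steap3 is close to 0.

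The libraries held 14309898, 15650640 and 16383374 counted reads with overexpression and 15385151, 14706283 and 15271490 in control cells. Levels are given as CPM, counts scaled to a common library total with TMM, as the mean ± SD over n = 3 libraries, and its standard error (SE) on the log2 scale comes from the spread of log2 CPM between libraries. Adjusted p-values are those of edgeR's quasi-likelihood test with Benjamini-Hochberg adjustment over all tested genes, with 0.05 as the threshold. The label of keratinocytes rests on few of its markers: 4 of 8 markers reached 1 CPM in every library, Krt5 had 0 counts in all 6, and Trp63 averaged 0.11 CPM with overexpression and 1.13 CPM in controls. Summed keratinocyte markers ranged over 280 to 284 CPM with overexpression and 308 to 316 CPM in controls. Perp and Sfn made up most of it, at 152 and 87.9 CPM with overexpression and 220 and 33.1 CPM in controls. The near-equal sums hide opposite differences, with 3 markers called higher (Sfn, Krt14, Col17a1) and 4 lower (Perp, Krt15, Dsg3, Trp63). Krt15 had 0 counts with overexpression and 1005 in controls. The sum of 7 melanocyte markers was 7.33 to 8.22 CPM with overexpression and 8.05 to 9.78 CPM in controls, with Tyr at 0 counts. Mitf made up most of it, at 4.92 CPM with overexpression and 7.02 CPM in controls, while Tyrp1 had 40 counts and Dct 31 counts with overexpression and both had 0 in controls. The sum of 7 fibroblast markers was 16.2 to 17.1 CPM with overexpression and 43.3 to 52 CPM in controls, with Lum at 0 counts. It was nearly all Pdgfra, at 16.4 CPM with overexpression and 44.9 CPM in controls, and besides Col1a1, at 0.2 CPM with overexpression and 2.66 CPM in controls, the others averaged at most 0.126 CPM in a group. Macrophage and leukocyte markers, 6 in number, summed to 4.86 to 6.8 CPM with overexpression and 18.6 to 21.7 CPM in controls, with Adgre1 at 0 counts. Cd68 made up most of that sum, at 4.54 CPM with overexpression and 19.1 CPM in controls, Csf1r had 0.811 CPM with overexpression and 0.818 CPM in controls, and the others averaged at most 0.214 CPM in a group. The part of other cells in the results below was not tested. In bulk samples fewer cells of a type and less RNA per cell cannot be told apart.

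**Figure D2:**
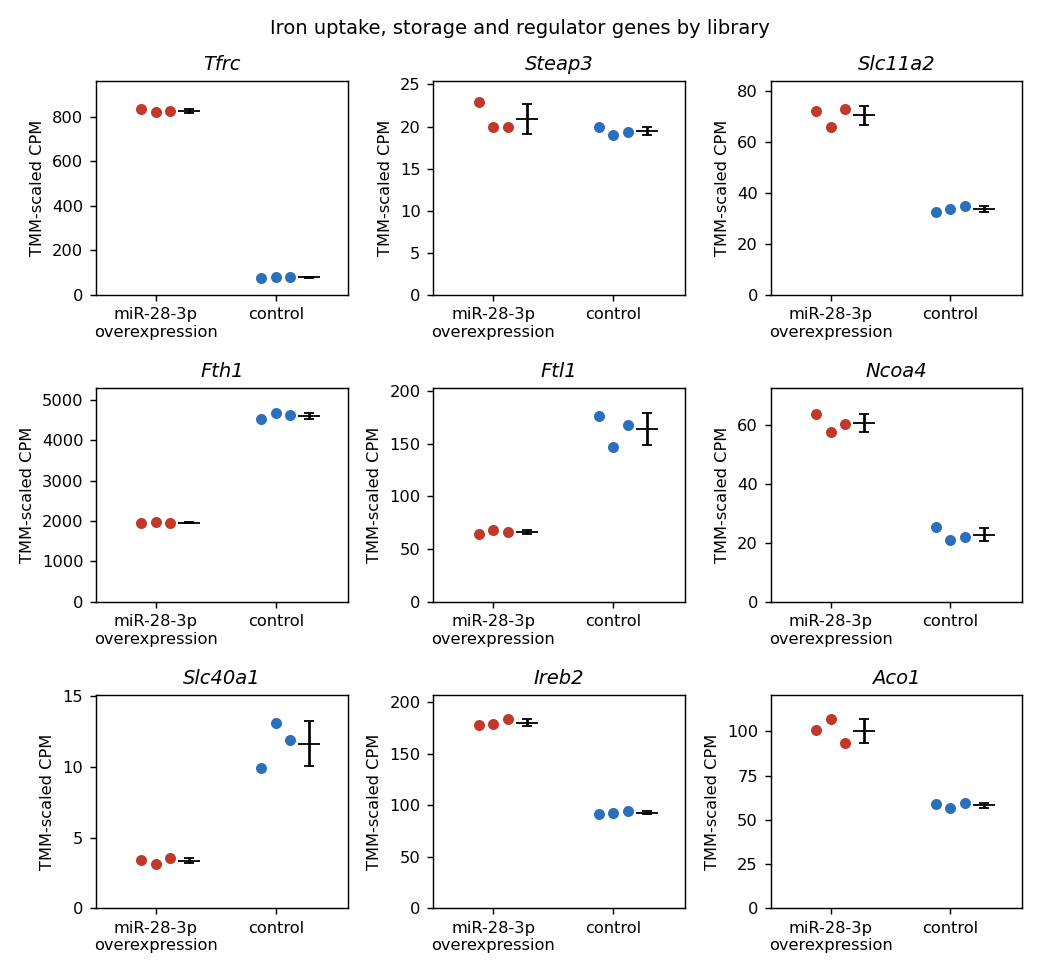
TMM-scaled CPM of the 9 genes in each of the 3 overexpression libraries (red, left) and 3 control libraries (blue, right) on axes that start at 0, with the group mean and SD in black. The groups are apart in every panel except that of Steap3, where the overexpression libraries at 19.9 to 22.9 CPM overlap the control libraries at 19 to 20 CPM.

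Of the uptake messages, Tfrc (ENSMUSG00000022797, chromosome 16, 32608920 to 32632794, plus strand) rose most. Tfrc encodes transferrin receptor 1, the protein that brings transferrin-bound iron into the cell. It had 836, 821 and 825 CPM in the overexpression libraries, against 76.7, 78.7 and 79.1 CPM in the control libraries. The values within each group lie close together and the groups are far apart. The log2 fold change was 3.40 (SE 0.016, adjusted p = 7.1e-68), and only 53 of the 11809 tested genes had a larger one. By counts, Tfrc stood at ranks 110 to 116 among all genes with overexpression, against 2897 to 2998 in controls. Its 3′ UTR holds the 4 elements printed above. The search found no match at that end in the other 8 genes, but it can miss elements. Other genes of the set may therefore also hold elements there.

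Slc11a2 (ENSMUSG00000023030, chromosome 15, 100387898 to 100425072, minus strand) encodes DMT1, which moves ferrous iron out of the endosome. It had 72.2, 65.9 and 72.7 CPM in the overexpression libraries, against 32.4, 33.7 and 34.7 CPM in the control libraries. All 3 overexpression libraries exceeded all controls, with a log2 fold change of 1.06 (SE 0.054, adjusted p = 6.81e-25). Its gene has 6 annotated coding transcripts, which gene-level counts do not separate.

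Steap3 (ENSMUSG00000026389, chromosome 1, 120190757 to 120272705, minus strand) encodes an endosomal ferrireductase, the enzyme that prepares transferrin-derived iron for DMT1. It had 22.9, 19.9 and 19.9 CPM in the overexpression libraries, against 20, 19 and 19.4 CPM in the control libraries. Replicate 1 of the overexpression libraries lies above the rest and the other two lie within the control range. The log2 fold change of 0.10 (SE 0.07) did not pass the test (adjusted p = 0.294), and its sign turned to -0.13 under upper quartile scaling. The messages of the receptor and the transporter of this route rose, while a change in that of the reductase was not detectable.

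The messages of both ferritin subunits were lower. Fth1 (ENSMUSG00000024661, chromosome 19, 9980598 to 9985098, plus strand) encodes the heavy chain, which oxidises iron as it enters the ferritin shell. It had 1948, 1970 and 1959 CPM in the overexpression libraries, against 4521, 4673 and 4614 CPM in the control libraries. The groups do not overlap, and the level was 2.35-fold lower with overexpression (log2 fold change -1.23, SE 0.015, adjusted p = 4.33e-55). Fth1 stood at rank 26 of all genes by counts in each overexpression library, against ranks 6 to 7 in controls.

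Ftl1 (ENSMUSG00000050708, chromosome 7, 45457944 to 45459884, minus strand) encodes the light chain, which helps the iron core to form. It had 63.8, 67.5 and 66.3 CPM in the overexpression libraries, against 176, 147 and 168 CPM in the control libraries. The controls vary more than the overexpression libraries, and all lie above them. The log2 fold change was -1.31 (SE 0.082, adjusted p = 9.71e-23), and it was -0.67 with the length trend and -0.30 with the length and GC trends removed. Ftl1 is the least certain count of the set: 60.4% of the 100-base windows of its main transcript occur also in other annotated transcripts, among them Ftl1-ps1, and the sources used here do not state how the authors treated reads with several matches. Ftl1-ps1 itself had 32 counts with overexpression and 39 in controls, summed over 3 libraries.

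The ferritin pair took 0.196 ± 0.001% of all counts with overexpression and 0.492 ± 0.00557% in controls (SD, n = 3 each). The ratio of Fth1 to Ftl1 in FPKM, the deposited value per length and depth, was 11.5 ± 0.265 with overexpression (11.3 to 11.8) and 10.9 ± 1.23 in controls (9.92 to 12.3), so the groups overlap. By main transcript length the Fth1 to Ftl1 ratio was 31.8, 30.4 and 30.8 in the overexpression libraries. The control libraries had 26.8, 33.2 and 28.6, so the groups overlap there too, but the size of the ratio depends on the length used. In FPKM the ratio of Fth1 to Tfrc was 4.22 ± 0.0603 with overexpression, against 105 ± 1 in controls.

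Ncoa4 (ENSMUSG00000056234, chromosome 14, 32159865 to 32179855, plus strand) encodes the cargo receptor that carries ferritin to the lysosome, the step known as ferritinophagy. It had 63.9, 57.8 and 60.5 CPM in the overexpression libraries, against 25.3, 21.1 and 22 CPM in the control libraries. The groups did not overlap, at a log2 fold change of 1.41 (SE 0.088, adjusted p = 6.88e-28). Windows shared with another annotated gene, Gm6768, make up 48.7% of its main transcript, so its level carries the same doubt as that of Ftl1.

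Slc40a1 (ENSMUSG00000025993, chromosome 1, 45908068 to 45926523, minus strand) encodes ferroportin, the only known iron exporter of mammalian cells. It had 3.39, 3.17 and 3.54 CPM in the overexpression libraries, against 9.93, 13.1 and 11.9 CPM in the control libraries. These rest on 47, 48 and 56 counts with overexpression and 158, 198 and 188 counts in controls, the lowest of the set. The groups are nevertheless apart, with a 3.45-fold lower level under overexpression (log2 fold change -1.79, SE 0.12, adjusted p = 4.68e-16). The ratio of Tfrc to Slc40a1 in FPKM, import receptor to exporter, was 358 ± 19 with overexpression and 9.87 ± 1.23 in controls.

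The messages of both regulators were higher. Ireb2 (ENSMUSG00000032293, chromosome 9, 54863789 to 54912530, plus strand) encodes iron regulatory protein 2, which is degraded when iron is plentiful. It had 178, 179 and 184 CPM in the overexpression libraries, against 91.5, 93 and 94.6 CPM in the control libraries. Its log2 fold change of 0.95 (SE 0.02, adjusted p = 7.56e-33) came with no overlap of the groups.

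Aco1 (ENSMUSG00000028405, chromosome 4, 40143081 to 40198338, plus strand) encodes iron regulatory protein 1, which serves as cytosolic aconitase when it holds an iron-sulfur cluster. It had 101, 107 and 93.3 CPM in the overexpression libraries, against 59, 56.7 and 59.3 CPM in the control libraries. The overexpression libraries are more spread out than the controls but all lie above them, at a log2 fold change of 0.78 (SE 0.061, adjusted p = 3.72e-22). The FPKM ratio of Ireb2 to Aco1 was 0.854 ± 0.0723 with overexpression (0.791 to 0.933) and 0.757 ± 0.021 in controls (0.736 to 0.778). With the length of the main coding transcript in place of the deposited length, the ratio was 1.17, 1.11 and 1.31 in the overexpression libraries, against 1.03, 1.09 and 1.06 in the control libraries, so which of the genes is higher turns round in all 6.

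Levels of different genes can be set side by side only per length. In FPKM, the order with overexpression was Fth1 (547), Tfrc (129), Ftl1 (47.6), Aco1 (21.6), Ireb2 (18.4), Slc11a2 (10.7), Ncoa4 (6.28), Steap3 (3.54) and Slc40a1 (0.362), and no neighbours in it overlapped between libraries. In controls it was Fth1 (1369), Ftl1 (126), Aco1 (13.4), Tfrc (13), Ireb2 (10.1), Slc11a2 (5.46), Steap3 (3.52), Ncoa4 (2.51) and Slc40a1 (1.33), where Aco1 and Tfrc overlapped. In this unit Tfrc thus stood between the ferritin subunits with overexpression and beside Aco1 in controls. The level of Ftl1 carries the doubt about shared windows given above. The deposited lengths are the union of all annotated exons and exceed the main coding transcript: they are 3469 bases for Fth1 and 6185 bases for Tfrc, whose main transcripts have 929 and 4890 bases. With the main transcript's length in their place, the Fth1 to Tfrc ratio was 12.3, 12.6 and 12.5 in the overexpression libraries, against 310, 313 and 307 in the control libraries. Fth1 stayed above Tfrc with either length, while the order of Aco1 and Ireb2 depended on it, as given above. Tfrc was not set against Ftl1, Aco1 or Ireb2 by main transcript length. The fold change of a gene between groups does not use its length in this fit.

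The fold changes of some of these genes moved with corrections for gene length and base composition. The trend of fold change with length was taken over the deposited lengths, by which Ftl1 is the shortest gene of the set (1340 bases). After its removal Ftl1 had a log2 fold change of -0.67, and after removal of length and GC trends -0.30 (edgeR, adjusted p = 0.000401). Ireb2 had 0.55 and 0.26, and Ncoa4 1.01 and 0.81, under the same corrections. Slc40a1 moved the other way, to -2.17 and -2.41. Tfrc kept 3.25 and 2.97 and Fth1 -1.03 and -1.06. All 8 calls kept their direction, so the corrections changed the size of the values, most of all for Ftl1 and Ireb2. By main transcript Fth1 is the shorter of the ferritin genes, at 929 bases against 968 for Ftl1. A correction with main transcript lengths was not run, so the unlike shifts of Fth1 and Ftl1 hold for the deposited lengths only.

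**Figure D3:**
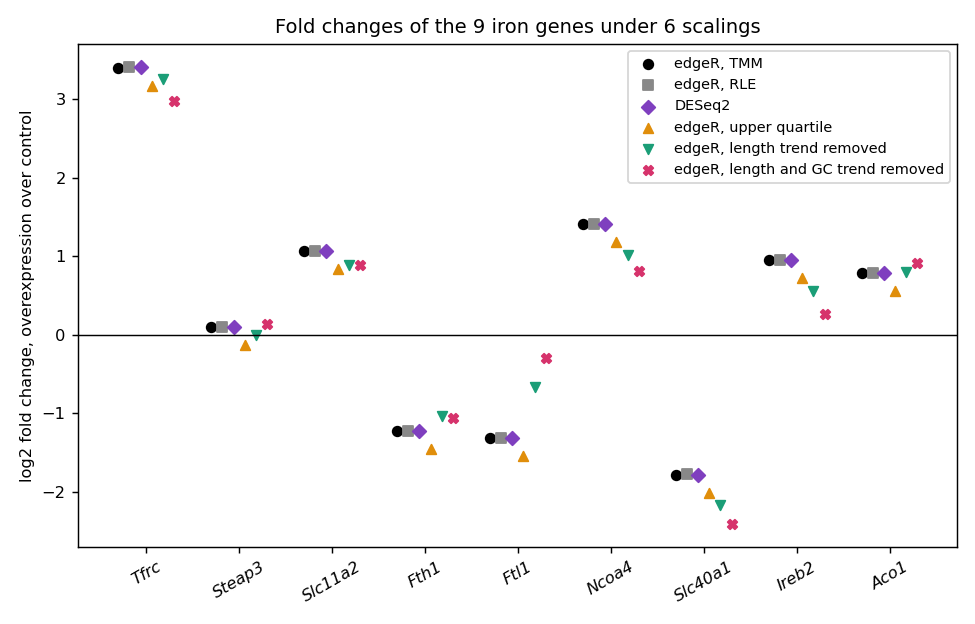
Log2 fold changes of overexpression over control for the 9 genes under 6 treatments of the counts: edgeR with TMM, RLE or upper quartile scaling, DESeq2, and edgeR after removal of the length trend or of the length and GC trends. The 8 called genes stay on their side of 0 throughout, Ftl1 runs between -1.54 and -0.30, and Steap3 lies on both sides of 0.

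The authors' deposited table of differential expression gives log2 fold changes of 3.41 for Tfrc, -1.22 for Fth1, -1.30 for Ftl1 and -1.78 for Slc40a1. The same deposited table lists 1.08 for Slc11a2, 1.42 for Ncoa4, 0.96 for Ireb2, 0.79 for Aco1 and 0.11 for Steap3, the last with an adjusted p of 0.432. The 8 genes called here are called in the authors' deposited table in the same direction.

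The patterns most like that of Tfrc across the 6 libraries, by Euclidean distance of centred log2 CPM, were those of Lss, Ptgs2 and Mmp10, at distances of 0.153, 0.212 and 0.216. Their log2 fold changes were 3.37, 3.42 and 3.55. Among the genes nearest to Fth1 were Rxrb and Frg1, at distances of 0.0291 and 0.0496, each with a log2 fold change of -1.22. With 2 groups that differ this widely, the measure mostly finds genes with a fold change of the same size.

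The mature microRNA is shown for the search of possible target sites in these genes, with its seed, bases 2 to 8, in capitals. The RefSeq table (GRCm38.p6) holds it as mmu-miR-28a-3p, at chr16:24827908-24827929 on the plus strand.
mmu-miR-28a-3p: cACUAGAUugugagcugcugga
The 7 bases that pair with this seed, ATCTAGT, were found in the longest annotated 3′ UTR of 0 of the 9 genes. These UTRs run from 156 bases in Fth1 to 3261 bases in Steap3. Of the 11656 tested genes with a 3′ UTR of at least 50 bases, 757 hold the site (6.49%). The absence says only that these letters are not in these UTRs.

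Beyond the 9 genes, 78 genes of iron, heme and iron-sulfur pathways were followed, of which 67 were tested. Among them 20 were higher, 39 were lower and 8 were not called, with a median log2 fold change of -0.25 against -0.03 over all tested genes. At least 2-fold differences were seen in 5 that were higher and 16 that were lower. Over all tested genes 42.1% were called higher and 43.9% lower, and 14.8% and 21.0% were so by at least 2-fold. These shares are also the background for the counts of each list below.

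Of 12 other genes of iron uptake, 9 were tested, 2 were higher and 6 were lower, with a median log2 fold change of -0.80. Scara5, a receptor that takes up ferritin, averaged 0.497 ± 0.229 CPM with overexpression and 21.1 ± 1.19 CPM in controls (log2 fold change -5.40). Lrp1, a large endocytic receptor that binds heme-hemopexin among many ligands, had 206 ± 9.24 CPM with overexpression and 547 ± 10.1 CPM in controls. Steap2, a metalloreductase related to Steap3, went the other way, with 274 ± 4.18 CPM under overexpression and 141 ± 7.45 CPM in controls (log2 fold change 0.95). The transferrin gene Trf itself had 1 count with overexpression and 5 in controls, so the receptor's ligand was hardly transcribed in either group.

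Iron chaperones and the ubiquitin ligase that degrades iron regulatory protein 2 differed by small amounts: all 6 were tested, 2 were higher and 4 were lower, and none by 2-fold. Pcbp1, which delivers iron to ferritin, had 344 ± 2.69 CPM with overexpression and 258 ± 5.21 CPM in controls. Fbxl5, the iron-sensing subunit of that ligase, had 93.7 ± 3.49 CPM with overexpression and 115 ± 0.545 CPM in controls, a log2 fold change of -0.29. Cul1, its scaffold, was higher at a log2 fold change of 0.68. After removal of the length trend the list had 3 higher and 3 lower.

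Of 8 genes of iron export and the hepcidin axis 3 were tested, and Heph, Hephl1, Hamp and Hjv had at most 4 counts in a group. Cp, the ferroxidase ceruloplasmin that works with ferroportin, had 67.4 ± 3.95 CPM with overexpression and 525 ± 10.1 CPM in controls (log2 fold change -2.96). Tmprss6, a protease that restrains hepcidin in liver, had 0 counts with overexpression and 232 in controls, which makes it at least 74.1-fold lower when 3 counts are taken as the limit of the empty group, and was added after its values were seen. Erfe, a hormone that lowers hepcidin, was higher at 39.6 ± 1.07 CPM with overexpression and 21 ± 1.3 CPM in controls. All 3 tested secreted iron-binding proteins were lower. Lcn2, which binds iron through siderophores, had 24 ± 1.93 CPM with overexpression and 935 ± 20 CPM in controls, and Ltf, lactoferrin, had 1.02 ± 0.271 CPM with overexpression and 308 ± 3.52 CPM in controls.

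Heme genes were mixed. Of 9 heme synthesis genes 2 were higher, 5 were lower and 2 were not called. Cpox had a log2 fold change of 1.40, against -1.73 for Ppox and -1.17 for Urod, which act next to it in the pathway. Of 9 tested genes of heme transport and breakdown, 2 were higher and 6 were lower. The heme exporters Flvcr1 and Abcg2 were higher, at log2 fold changes of 1.69 and 1.58, and the biliverdin reductase Blvrb was lower at -3.64. Hmox1, which releases iron from heme, had 25.9 ± 0.684 CPM with overexpression and 25.6 ± 1.22 CPM in controls and was not called (adjusted p = 0.858). These counts depend on gene length: with the length trend removed, heme synthesis had 4 higher and 5 lower, and heme transport and breakdown had 5 higher and 3 lower.

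Of 18 tested genes of mitochondrial iron handling and iron-sulfur assembly, 6 were higher and 9 were lower, with a median log2 fold change of -0.15. With the length trend removed they were 9 higher and 8 lower. Hscb, a co-chaperone of cluster transfer, was lower at 6.89 ± 0.624 CPM with overexpression and 40.1 ± 3.74 CPM in controls, while its partner Hspa9 was higher by 0.32 on the log2 scale. The 8 cytosolic assembly genes were split, with 4 higher and 4 lower, among them Nubp1 at 1.18, Ciao1 at -0.66 and Mms19 at -0.55.

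Among other messages known to carry an iron-responsive element, 3 did not pass the test or were not counted. Alas2, the erythroid heme synthesis enzyme, had 37 counts with overexpression and 19 in controls and missed the threshold (adjusted p = 0.0568). Cdc14a, a phosphatase, had 28 ± 0.948 CPM with overexpression and 28.5 ± 0.852 CPM in controls and was not called (adjusted p = 0.768). Its log2 fold change was -0.25 under upper quartile scaling and -0.52 with the length trend removed, and it was called lower in both. Epas1 had 0 counts in all 6 libraries.

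**Figure D4:**
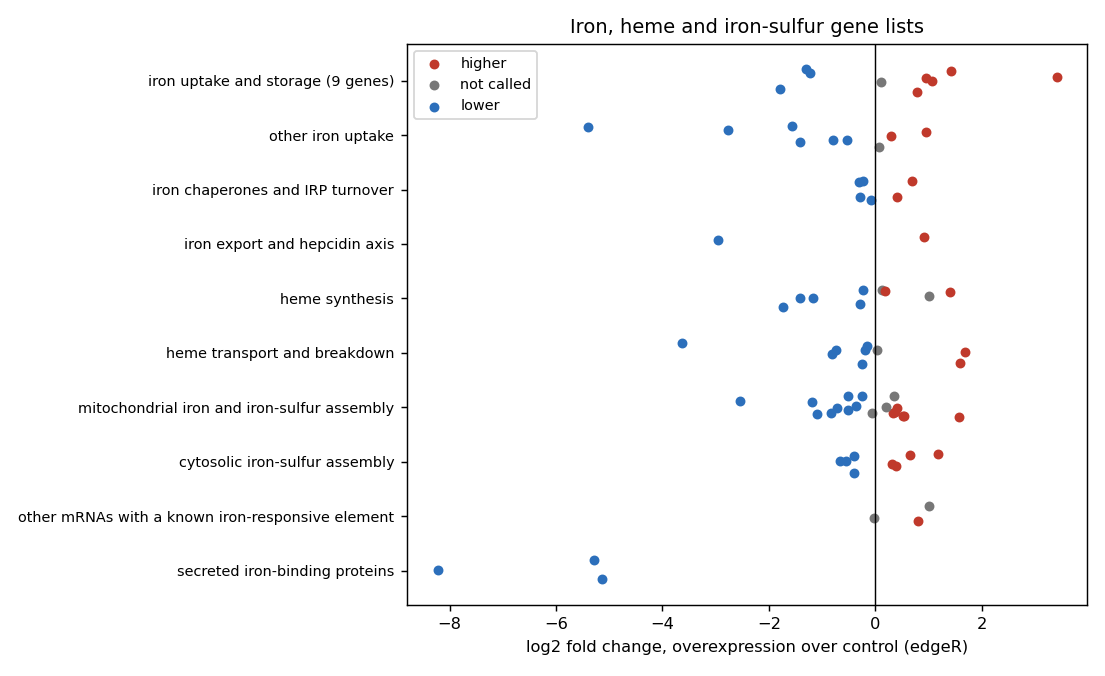
Log2 fold changes of overexpression over control for the tested genes of each list, 1 point per gene, coloured by call (edgeR, adjusted p under 0.05), and the vertical position within a row is arbitrary. Tmprss6, with 0 counts under overexpression, is not drawn. The 9 genes of the first row reach from -1.79 to 3.40, and the secreted iron-binding proteins lie between -8.22 and -5.13.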

How the data were processed

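The authors deposited 1 table with raw read counts per gene and library and with FPKM values, and a second table with their own log2 fold changes and adjusted p-values. HISAT2, HTSeq and DESeq are named in the submitters' processing notes, without versions. The deposited FPKM values equal counts scaled by the deposited length and the library total. The notes name mm9, but 21617 of 21936 genes have the coordinates of GENCODE release 21 (21817 matched by identifier), so coordinates are those of GRCm38.

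Counts were tested with edgeR 4.0.16 in R 4.3.3, using filterByExpr with a minimum count of 10, TMM scaling, the robust quasi-likelihood test and Benjamini-Hochberg adjustment over 11809 genes. DESeq2 1.42.0 and limma 3.58.1, on log2(FPKM + 1), served as alternatives, besides other scalings, no filter, length and GC corrections and leaving out each library. The test was checked on simulated data. The 9 genes and the lists were chosen with earlier results of these data known. From each list, the 3 members with the smallest p and at least 5 CPM in the higher group were named, with any gene set against one of the 9. Some genes that this rule takes are not reported here. Counts of 0 carry a floor of 3 counts, and floors cover counting error only. Libraries of a group differed by more than counting noise, with chi-square per degree of freedom of 1.86 to 2.63. The edgeR fit put this extra variation at 2.93% (common coefficient of variation).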

Additional observations from a re-analysis of the deposited data

How the results depend on the processing

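The 8 called genes of the 9 kept their direction and their call under each of 17 alternatives (5 higher and 3 lower in each), and Steap3 was not called under any. Log2 fold changes ran from 2.90 to 3.42 for Tfrc, from -1.46 to -1.03 for Fth1, from -1.54 to -0.30 for Ftl1 and from -2.41 to -0.24 for Slc40a1, the last value at an FPKM pseudocount of 5, which shrinks low genes by construction. They ran from 0.59 to 1.12 for Slc11a2, from 0.59 to 1.49 for Ncoa4, from 0.26 to 0.97 for Ireb2 and from 0.53 to 0.91 for Aco1. Steap3 changed sign to -0.13 under upper quartile scaling and -0.00 with the length trend removed, and Cdc14a ranged from -0.04 to 0.01 when 1 library was left out; the cause was not tested. Against a minimum change of 1.5-fold, 5947 genes were called, 2762 higher and 3185 lower. DESeq2 called 9820 genes. With a replicate block edgeR called 10116, 4955 higher and 5161 lower, against 10159 without it; same-numbered libraries had correlations of -0.005, -0.003 and -0.031, so the numbers were not taken as pairs. Of 408 values of 24 other genes taken by the naming rule under alternatives, 398 kept direction and call. Depth limits Slc40a1 most, at 47 to 56 counts per overexpression library.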

Other observations

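Among tested genes the iron-responsive element pattern did not go with 1 direction. Of 27 tested genes that hold it in a 5′ UTR, 12 were higher, 9 were lower and 6 were not called, with a median log2 fold change of 0.07. Of 97 tested genes that hold it in a 3′ UTR, 47 were higher, 31 were lower and 19 were not called, with a median of 0.13. These sets include members of the 9 iron genes: Fth1, Ftl1 and Slc40a1, all lower, in the first and Tfrc, higher, in the second. Over all tested genes the median was -0.03, with 42.1% called higher and 43.9% lower. Many of these matches are by sequence alone, without a known element.

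Tested genes with the miR-28-3p seed site in the longest 3′ UTR, none of them among the 9 iron genes, were called higher in 442 cases and lower in 205 of 757. Their median log2 fold change was 0.36, against -0.05 for the genes without the site. Of all tested genes, 42.1% were called higher and 43.9% lower. Length of the UTR was not taken into account.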
